A study of Homo sapiens with 6 samples.

Results

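SON and 5 further genes that encode scaffold or RS-rich proteins of nuclear speckles (SRRM1, SRRM2, PNN, ACIN1 and PNISR) were followed across 6 RNA libraries of MG63 cells. MG63 is an established cell line from a human osteosarcoma, a bone tumour. The 6 genes were taken by symbol out of 61806 genes listed, and all 6 were found, carried reads and passed the filter on low values. They were selected on earlier results of these data: SON was chosen by its estimate of shFTO over shNC, the highest among well-read genes, and the other 5 as its speckle partners. The contrast of shFTO with shNC is therefore a description for all 6: no p is given for a member, and counts of members called support nothing.

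The shFTO group held 3 biological replicates of MG63 cells with a stable short hairpin against FTO, an RNA demethylase whose best-known substrate is N6-methyladenosine (m6A). The shNC group held 3 biological replicates of the same line with a control hairpin. Neither the hairpin sequences nor whether a line was 1 clone or a pool is stated in the labels. Poly(A) RNA was sequenced on a strand-specific protocol, and expression was deposited as FPKM, a level scaled to exonic length and to sequencing depth.

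Nuclear speckles are bodies between chromatin domains where splicing factors and spliced mRNAs collect. SON and SRRM2 are large proteins with long disordered stretches and form the core on which speckles are built, and loss of both disperses them. Proteins with arginine and serine repeats (RS domains) bind each other and the spliceosome there, and their contacts are set by kinases that phosphorylate the repeats. SON is known to help the splicing of introns with weak splice sites, many of them in genes of the cell cycle.

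Depth limits every value below. The whole reads behind the FPKM values could be recovered and came to between 93629 and 106245 reads per library, 592760 in all. Their make-up was uneven: EIF4G2, a translation factor gene, averaged 8595 reads per library and HNRNPA3, an RNA-binding protein gene, 3474, while ACTB, GAPDH and VIM, usually abundant in such cells, averaged 12.5, 14.7 and 14.2. The table may thus hold only part of each library's reads, which was not tested, so levels, zeros and the order of genes hold for the deposited values and may not be those of the cells. FTO was listed at 0 in all 6 libraries, so the knockdown could not be checked on its target. Mesenchymal and bone markers had reads for 9 of 12 genes, at 109 to 110.5 of 100000 reads in shFTO and 94 to 115 in shNC, with ALPL, BGLAP and SPP1 at 0. Of 8 epithelial markers 2 had reads, 7 in shFTO (0 to 3.77 of 100000 per library) and 1 in shNC (0 to 1.07), with EPCAM and CDH1 at 0, and their part in the results was not tested. The endothelial list had 0 reads in shFTO and 1 in shNC, and the blood and neural lists had 0. These are bulk libraries, so a changed share of cells and a changed amount of RNA per cell cannot be told apart.

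The SON gene (ENSG00000159140) lies on chromosome 21 of GRCh38, from 33543038 to 33577481 on the plus strand. Its first 454 bases overlap GART, a purine synthesis gene read from the opposite strand, so the pair share 1 start region. That region is shown because the reads of the pair were far apart: 986 reads for SON against 5 for GART over the 6 libraries. The RefSeq window of SON (GRCh38.p14, chr21:33542788-33543087, plus strand) runs from 250 bases before to 50 bases after the start and shares 248 bases with a GART window. The window of PNN, the other well-read member, is chr14:39175004-39175303 on the plus strand. Capitals mark the letters CCAAT, or ATTGG for the same motif on the other strand, which a protein complex named NF-Y is known to bind.
SON: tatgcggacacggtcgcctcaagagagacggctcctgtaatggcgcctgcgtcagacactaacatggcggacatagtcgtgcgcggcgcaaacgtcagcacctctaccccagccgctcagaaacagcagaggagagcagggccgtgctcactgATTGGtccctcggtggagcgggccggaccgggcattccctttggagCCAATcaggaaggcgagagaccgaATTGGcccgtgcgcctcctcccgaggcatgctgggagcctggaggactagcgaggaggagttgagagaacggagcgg
PNN: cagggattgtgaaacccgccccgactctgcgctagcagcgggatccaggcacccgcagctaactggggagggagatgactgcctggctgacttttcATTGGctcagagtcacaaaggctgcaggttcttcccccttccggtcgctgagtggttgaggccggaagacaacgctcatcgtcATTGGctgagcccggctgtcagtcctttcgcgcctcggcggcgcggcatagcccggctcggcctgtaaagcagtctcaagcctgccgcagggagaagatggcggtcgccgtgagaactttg

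The SON window held the motif 3 times and the PNN window 2 times. The GART windows held it 3, 3 and 1 times, so the motif count does not set SON apart from GART. Of 35116 RefSeq windows of the same length, 34.6% held it at least 1 time, 10.8% at least 2 times and 3.26% at least 3 times. SRRM1 and ACIN1, with 3 windows each, held it 1 time in 1 window, while the SRRM2 and PNISR windows held none. These are matches of letters and show no binding.

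FTO acts on m6A, whose commonest sequence context is GGACT in DNA letters. SON had the densest copies of these letters among the 6 members: 13 in 7278 coding bases of its longest GENCODE 29 coding sequence, or 1.79 per kb on the coding strand. That was at or above 81.2% of 12648 human genes with at least 1000 coding bases, whose median was 0.969 per kb. PNISR had 1.24 per kb, SRRM1 1.1 and SRRM2 0.969. ACIN1 and PNN, at 0.497 and 0.465 per kb, were at or above 21.2% and 19.9% of genes. Methylation was not measured here, and 85.1% of these genes hold the letters at least 1 time. A SON stretch of 60 bases, coding bases 2178 to 2237, was picked for holding the most copies, 2. It is thus denser than SON as a whole. The letters around its 2 copies are nearly the same, so they are a repeat. The stretch is set beside the only copy in PNN, within coding bases 1945 to 2004, with GGACT in capitals.
SON: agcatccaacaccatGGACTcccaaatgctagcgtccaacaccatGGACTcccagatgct
PNN: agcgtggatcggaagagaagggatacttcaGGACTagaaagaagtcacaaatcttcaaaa

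SON, the speckle core protein, had the most reads of the 6 members, with 203, 187 and 183 reads in shFTO replicates 1, 2 and 3, and 139, 142 and 132 reads in shNC replicates 1, 2 and 3. Its FPKM was 149.8, 156 and 139 in shFTO, against 116, 110.3 and 111 in shNC. The lowest shFTO library stood above the highest shNC library, so all 9 pairings of 1 shFTO with 1 shNC library gave a ratio over 1, from 1.2 to 1.41. The group means were 148 ± 8.71 FPKM in shFTO and 112 ± 2.96 FPKM in shNC (SD, n = 3 each), a ratio of 1.32. In limma on log2(FPKM + 1) the change of SON was 0.40 (SE 0.20). In a quasi-Poisson fit to the recovered reads, which weights libraries by depth, it was 0.40 (SE 0.12, 95% interval 0.15 to 0.65).

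Being the highest of 150 genes chose SON, and these values do not show more than that. The 150 genes are those with a mean of at least 100 reads per library. MYH9, a nonmuscle myosin heavy chain gene, came next at a log2 change of 0.36 (SE 0.16) in the quasi-Poisson fit, with 379 reads in shFTO and 280 in shNC. MYH9 had 76.8, 54.3 and 86.8 FPKM in shFTO and 46, 63.9 and 60.2 in shNC, so its groups overlapped. SZRD1, which encodes a small SUZ-domain protein, was the third at 0.29 (SE 0.13), with 339, 307 and 320 FPKM in shFTO and 266, 276 and 252 in shNC. The SZRD1 groups did not overlap.

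The agreement of the SON libraries was closer than read counting gives. With 573 reads in shFTO and 413 in shNC, counting alone would give a coefficient of variation (CV) of 7.24% in shFTO and 8.52% in shNC. The observed CV of SON was 5.88% in shFTO and 2.64% in shNC. Its raw dispersion, the squared deviation from group means relative to a Poisson count, was 0.373, where 1 is counting error alone. The median raw dispersion was 1.93 over the 150 well-read genes, of which 6 had a lower value than SON. The quasi-Poisson SE and interval above do not use this raw value, but one moderated across genes and kept at 1 or more. The SD of 2.96 FPKM in shNC thus leaves out part of the counting error. From counts alone, SON had a depth-scaled read ratio of 1.32, and the exact 95% interval ran from 1.161 to 1.501. Intervals of this kind cover counting error only.

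**Figure D1:**
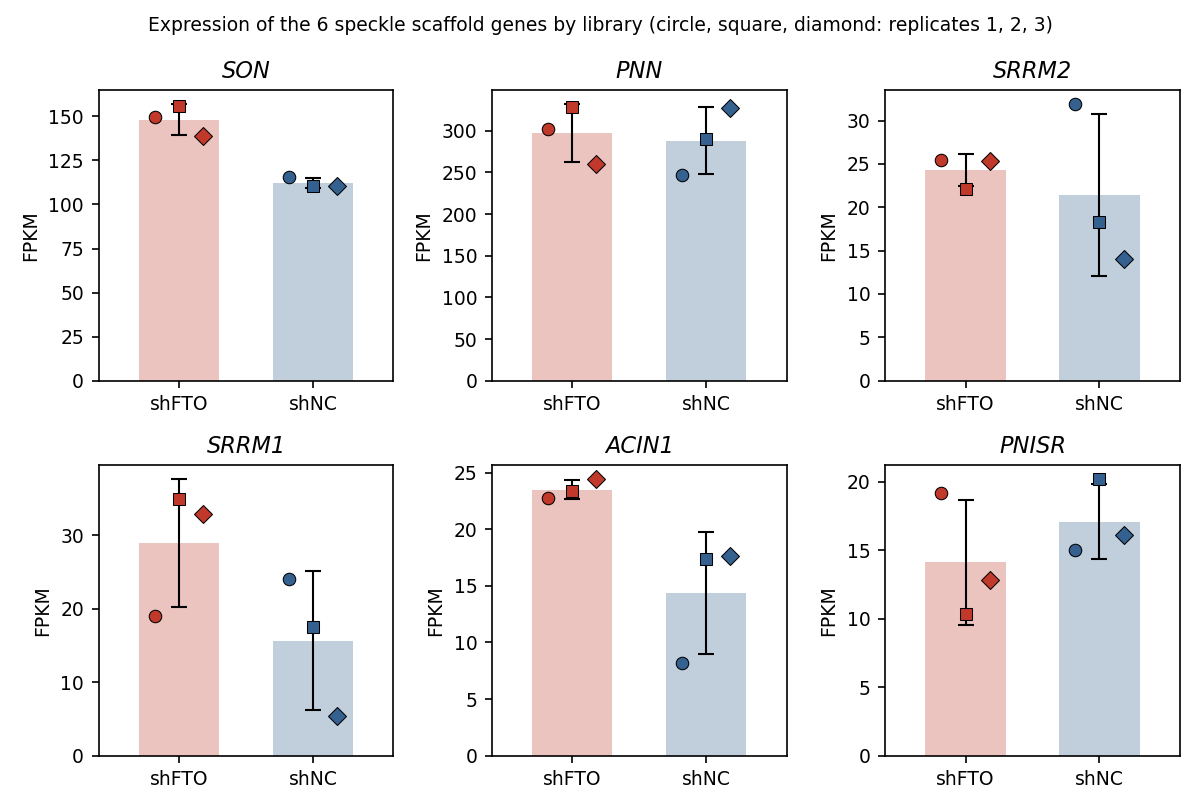
FPKM of each of the 6 genes in the 3 shFTO libraries (red) and the 3 shNC libraries (blue); bars are means, error bars are SD, and circle, square and diamond are replicates 1, 2 and 3. SON and ACIN1 are the members whose groups do not overlap, with SON at 139 to 156 FPKM in shFTO and 110.3 to 116 in shNC.

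SRRM2, the other large core protein of speckles (ENSG00000167978, chromosome 16, 2752626 to 2772538, plus strand), had far fewer reads than SON at nearly the same exonic length. It had 35, 27 and 34 reads in shFTO and 39, 24 and 17 in shNC. That is 25.4, 22.1 and 25.3 FPKM in shFTO, against 31.9, 18.3 and 14 FPKM in shNC. Replicate 1 of shNC was the highest of all 6 libraries, and the groups overlapped. The limma log2 change was 0.25 (SE 0.42), and the quasi-Poisson interval of -0.40 to 0.78 left room for a fold of 0.76 or of 1.71. Without shNC replicate 3 the change was 0.00, and without shNC replicate 1 it was 0.57.

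SRRM1, a splicing coactivator that also joins the exon junction complex (ENSG00000133226, chromosome 1, 24631716 to 24673281, plus strand), had the largest fitted change of the 6, and in shNC the widest CV, 60.5%. Its reads were 16, 26 and 27 in shFTO and 18, 14 and 4 in shNC, or 19, 34.9 and 32.9 FPKM in shFTO and 24.1, 17.5 and 5.39 in shNC. The groups overlapped, since shFTO replicate 1 stood below shNC replicate 1. The limma log2 change of SRRM1 was 1.01 (SE 0.48), and 0.87 (SE 0.40) in the quasi-Poisson fit. Without shNC replicate 3, the library with 4 reads, the limma change was 0.43.

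PNN encodes pinin, first found at desmosomes and later in speckles, where it forms the PSAP complex with RNPS1 and SAP18 (ENSG00000100941, chromosome 14, 39175183 to 39183220, plus strand). It had 135, 130 and 113 reads in shFTO and 98, 123 and 129 in shNC. Its FPKM was 302, 329 and 259.9 in shFTO and 247, 289.8 and 328 in shNC, and the groups overlapped over most of their range. The quasi-Poisson change of PNN was 0.04 (SE 0.14), and its 95% interval of -0.25 to 0.32 spans folds of 0.843 to 1.25. Among the 150 well-read genes PNN ranked 63 by this estimate.

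ACIN1 encodes acinus, the partner of RNPS1 and SAP18 in the related ASAP complex (ENSG00000100813, chromosome 14, 23058564 to 23095614, minus strand). Reads of ACIN1 were 22, 20 and 23 in shFTO and 7, 16 and 15 in shNC. That is 22.7, 23.3 and 24.4 FPKM in shFTO, against 8.14, 17.4 and 17.6 in shNC. Every shFTO library was above every shNC library. The shFTO libraries of ACIN1 had a CV of 3.6% where counting gives 21.5%, so their closeness is no measure of precision. The limma log2 change was 0.74 (SE 0.46), and the quasi-Poisson interval of -0.08 to 1.48 included 0. Without shNC replicate 1 the limma change was 0.40.

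PNISR encodes a serine- and arginine-rich protein that binds pinin (ENSG00000132424, chromosome 6, 99397629 to 99425331, minus strand). It was the only member with a lower mean in shFTO. PNISR had 23, 11 and 15 reads in shFTO and 16, 23 and 17 in shNC. Its FPKM was 19.2, 10.4 and 12.8 in shFTO, against 15, 20.2 and 16.1 in shNC. The groups overlapped, with shFTO replicate 1 near the top of the shNC range. The limma log2 change was -0.29 (SE 0.48), with single-library omissions giving -0.52 to -0.10.

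**Figure D2:**
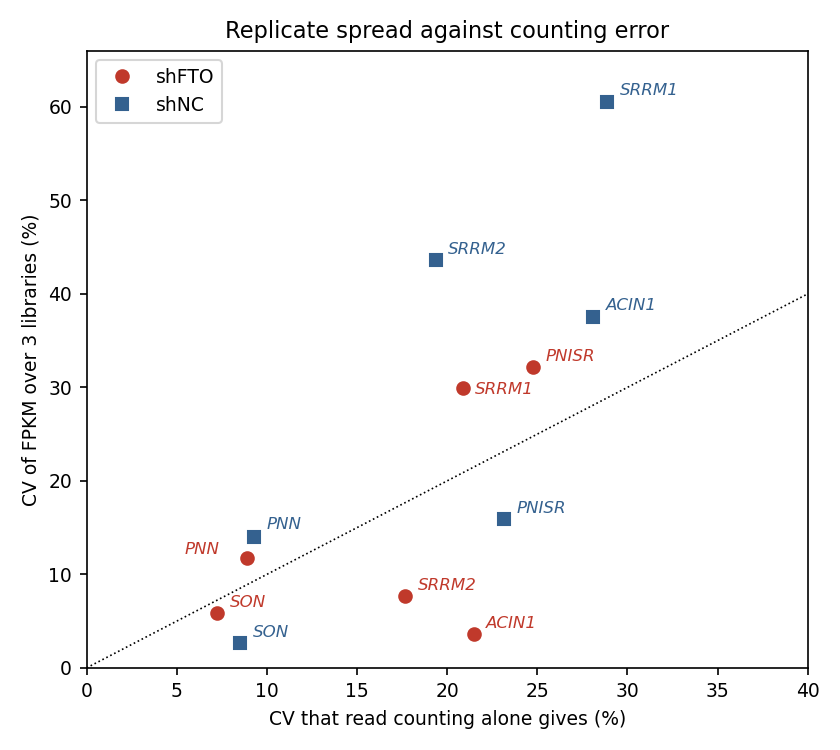
CV of FPKM over the 3 libraries of a group (vertical, percent) against the CV that read counting alone gives (horizontal, percent) for each member in shFTO (red circles) and shNC (blue squares); the dotted line marks equality. SON lies under the line in both groups, at 5.88% in shFTO and 2.64% in shNC, and SRRM1 in shNC lies farthest above it, at 60.5%.

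Read together, 5 of the 6 members had a higher mean in shFTO, and 0 of 6 passed an adjusted p of 0.05 in limma, where 0.0406% of 4932 tested genes did. At an unadjusted p under 0.05 limma had 2 of 6, where 3.85% of tested genes passed. The quasi-Poisson fit, which called 0 of 1021 genes, and limma-voom, which called 5 of 4932, also called 0 of 6 members. The groups of 2 of 6 members did not overlap and lay higher in shFTO, where 5.11% of the 705 genes with a mean of at least 10 reads per library did so, and 4.68% lay lower without overlap. Over all 4932 tested genes these shares were 2.9% higher and 3.69% lower, and over the 150 well-read genes 6.67% higher and 3.33% lower. Nothing is read from these shares or from the medians that follow, as the same contrast chose the members. The median limma log2 change was 0.32 over the 6 members and 0.00 over the 705 genes. The 6 genes held 408.5, 426 and 382 of 100000 reads in shFTO replicates 1, 2 and 3, against 336, 339 and 335 in shNC replicates 1, 2 and 3. SON made up 44.8% of the 2203 member reads. Without SON the other 5 held 217, 227.5 and 205 of 100000 reads in shFTO, against 189, 198 and 194 in shNC.

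**Figure D3:**
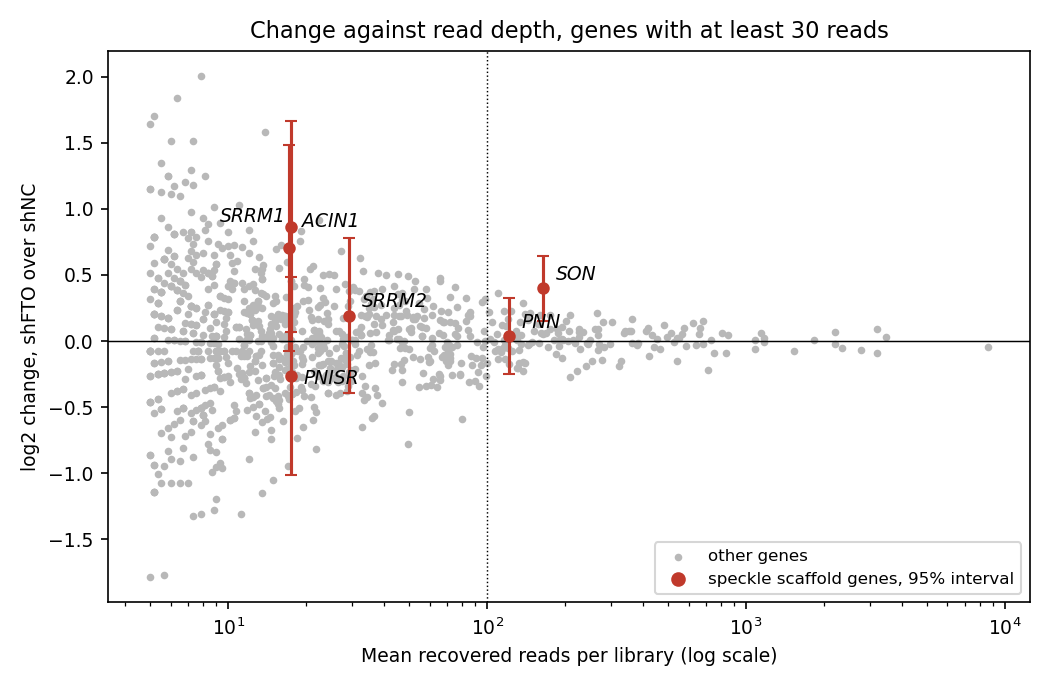
Quasi-Poisson log2 change of shFTO over shNC against mean reads per library (log scale) for genes with at least 30 reads; red points are the 6 members with 95% intervals, and the dotted line marks 100 reads per library. SON, at 0.40, is the highest point right of that line, and the intervals of members near 17 reads per library are wide.

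Per length, PNN had the highest level of the 6 genes, with a mean of 293 FPKM over all 6 libraries, followed by SON at 130.1 FPKM. SRRM2 followed at 22.8 FPKM, SRRM1 at 22.3, ACIN1 at 18.9 and PNISR at 15.6. PNN was above SON in 6 of 6 libraries, by 1.18 ± 0.25 on the log2 scale (SD over 6 libraries), and SON was above SRRM2 in 6 of 6, by 2.54 ± 0.39. Each of these steps had an exact two-sided sign-flip permutation p of 0.0312, the smallest that 6 libraries allow, and an adjusted p of 0.0781 over the 5 steps. The steps between neighbours among the lower 4 genes were smaller than their spread, and pairs that are not neighbours were not tested. SRRM2 was above SRRM1, SRRM1 above ACIN1 and ACIN1 above PNISR in 4 of 6 libraries each (exact sign-flip permutation p = 0.531, 0.719 and 0.406). By reads, without division by length, SON stood above PNN in 6 of 6 libraries, since its exonic length is 12752 bases against 4203 for PNN. On that scale SRRM2 also stood above SRRM1 in 6 of 6 libraries.

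Genes that overlap a member, and pseudogenes of SRRM1, were credited with few or 0 reads. Of 8 genes that overlap a member on the genome, GART had 5 reads, DONSON, a replication gene on the opposite strand of SON, had 4, and ELOB, an elongin subunit gene at the end of SRRM2, had 4. The other 5 had 0 reads. The pseudogenes SRRM1P2 and SRRM1P3 had 0 reads. No label states the strand setting of the counting, and these are reads after assignment to genes. DONSON overlaps SON over 17940 bases. How many reads credited to a member came from an overlapping or similar gene was not tested.

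Well-read genes most like SON in pattern were sought by Pearson's r of log2(FPKM + 1) over the 6 libraries, among the 150 genes with a mean of at least 100 reads. These points share libraries and depth, and each r is a description. FHL1, a LIM-domain protein gene, had r = 0.91, with 668, 655 and 661 FPKM in shFTO and 580.4, 606 and 585 in shNC. SZRD1 had r = 0.88, ENY2, a subunit of the SAGA and mRNA export complexes, had 0.85 and ZFAND5, a zinc finger protein gene, had 0.84. The groups of all 4 did not overlap, as those of 6.67% of the 150 genes did with shFTO higher, but picking genes by likeness to SON favours this and nothing is read from it. After group means were removed, r with SON was -0.37 for FHL1, -0.14 for SZRD1, 0.53 for ENY2 and 0.42 for ZFAND5. Among the members, r of log2 FPKM with SON was 0.63 for SRRM1 and for ACIN1, 0.40 for SRRM2, 0.22 for PNN and -0.52 for PNISR. At these read numbers single reads move such values.

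**Figure D4:**
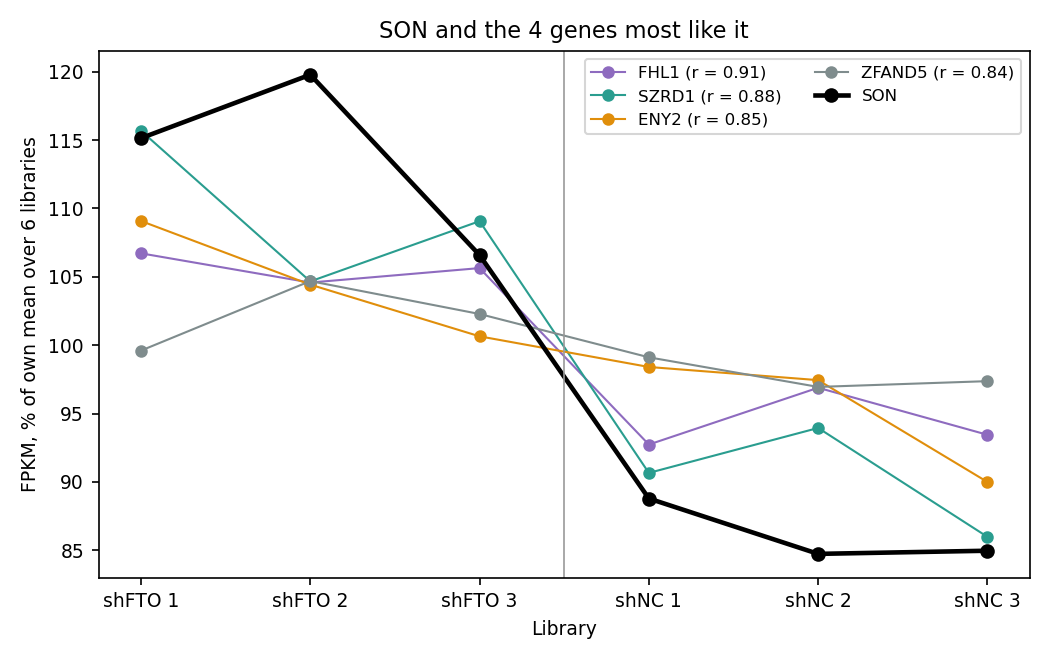
FPKM of SON (black) and of the genes with the 4 highest values of Pearson's r with it, as percent of each gene's own mean over 6 libraries (vertical), in the shFTO libraries and then the shNC libraries (horizontal); lines only join the points of a gene. SON has the widest swing between the groups, which follows from its choice as the highest estimate of the 150 genes. All 5 genes are higher in every shFTO library than in any shNC library, which picking by likeness to SON favours.

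The rest of the speckle and splicing machinery showed no called change. Of 128 genes in 9 lists, 98 entered the limma fit, which called 0 higher and 0 lower (smallest adjusted p = 0.772). At an unadjusted p under 0.05, limma had 2 of the 98, where 3.85% of all 4932 tested genes passed. Limma-voom had 4 of the 98, where 5.39% of the same genes passed, and the quasi-Poisson fit had 1 of 49, where 5.29% of 1021 genes passed. Over the 44 list genes with a mean of at least 10 reads per library, 23 had a positive limma log2 change and the median was 0.03. The groups did not overlap for 2 of the 44, both higher in shFTO, where 5.11% of the 705 genes of that depth did so. They were RBM25 and SRSF7, named after their values were seen. RBM25, an RS-rich splicing regulator, had 35.2, 34.3 and 45.2 FPKM in shFTO and 27, 20.2 and 33.6 in shNC (limma log2 change 0.51, SE 0.36, adjusted p = 0.772). SRSF7, an SR protein gene, had 524, 541 and 533 FPKM in shFTO and 443, 517 and 478 in shNC (limma log2 change 0.16, SE 0.11, adjusted p = 0.772).

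SR and TRA2 splicing factors, the best-known clients of speckles, were the most abundant of these lists. They held 2290 ± 25.6 of 100000 reads in shFTO and 2213 ± 34.1 in shNC (SD, n = 3 each), with ranges of 2267 to 2318 and 2187 to 2252 that did not overlap. The sum of all 9 lists did not overlap either, at 4531 to 4651 of 100000 reads in shFTO and 4401 to 4471 in shNC, and neither sum was tested. SR and TRA2 factors made up 13354 of the 26750 reads in that sum. The ranges of each other list overlapped between the groups. SRSF1 had 760.2 ± 67.7 FPKM in shFTO and 786 ± 21.1 in shNC, SRSF6 had 768.5 ± 75.5 and 726 ± 16.2, and SRSF2 had 975 ± 76.8 and 839 ± 48.3. The median log2 change over the 10 list members with enough reads was 0.04, with 6 of 10 positive. Other proteins with RS domains held 599.8 ± 24.7 of 100000 reads in shFTO and 591 ± 15.3 in shNC. Among them ARGLU1, a splicing modulator gene, had 334 ± 24.2 FPKM in shFTO and 314 ± 28.2 in shNC. CCNL1, the cyclin L1 gene, had 141 ± 11.9 and 162 ± 29.9 FPKM, and RBM39, a splicing factor gene, had 39.2 ± 3.64 and 37.2 ± 8.62.

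Partners of the members in the ASAP, PSAP and exon junction complexes were sparsely read. RNPS1, which joins PNN and ACIN1 in their complexes, had 11 reads in shFTO and 5 in shNC. The decay factor gene UPF2 had 45 and 49 reads and the junction protein gene CASC3 had 4 and 2. The PNN, ACIN1 and SRRM1 reads thus could not be set against those of their partners in any library with precision. Among kinases and phosphatase subunits that act on RS domains, PPP1CC had 281 ± 17.6 FPKM in shFTO and 269 ± 22.5 in shNC. PPP1CB, another catalytic subunit of the same phosphatase, had 71 ± 12.7 and 57 ± 4.41, and DYRK1A, a speckle-located kinase gene on chromosome 21 like SON, had 45.1 ± 3.8 and 41.6 ± 8.5. That list had a median log2 change of 0.07 over 11 genes, 6 of them positive.

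Export factors of the speckle edge had a median log2 change of -0.10 over 3 genes with enough reads. CHTOP, a subunit of the TREX export complex, had 225 ± 19.7 FPKM in shFTO and 251 ± 43.4 in shNC. ZC3H14 had 12.5 ± 2.55 and 12.9 ± 3.8 FPKM, and THOC2 had 17.1 ± 6.09 and 18.3 ± 6.14. Of the core spliceosome list, the helicase gene DHX15 had 535 ± 27.9 FPKM in shFTO and 499.8 ± 24 in shNC, SF3B1 had 40.5 ± 4.62 and 40.5 ± 10.4, and EFTUD2 had 16.4 ± 6.32 and 14.4 ± 10.3. Genes of paraspeckles, the neighbouring bodies, had a median of 0.01 over 6 genes. There EWSR1 had 197 ± 23.9 FPKM in shFTO and 184 ± 3.31 in shNC, SFPQ had 79.6 ± 3.91 and 83.8 ± 9.53, and CPSF6 had 70.4 ± 14 and 79.7 ± 22.2.

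The long noncoding RNAs of these bodies were nearly absent from the reads. MALAT1, a noncoding RNA that collects in speckles, had 0 reads in all shFTO libraries and 3 reads in shNC replicate 1, with 0 in the other shNC libraries. NEAT1, the RNA on which paraspeckles are built, had 6, 6 and 4 reads in shFTO and 4, 2 and 3 in shNC. Transcripts whose splicing is known to need SON had too few reads to follow: 4 of 7 had any, with AKT1 at 2 reads in shFTO and 7 in shNC, TUBGCP2 at 2 and 2, and TUBG1 at 2 and 1. Gene-level values hold no splice junctions, so splicing was not measured.

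**Figure D5:**
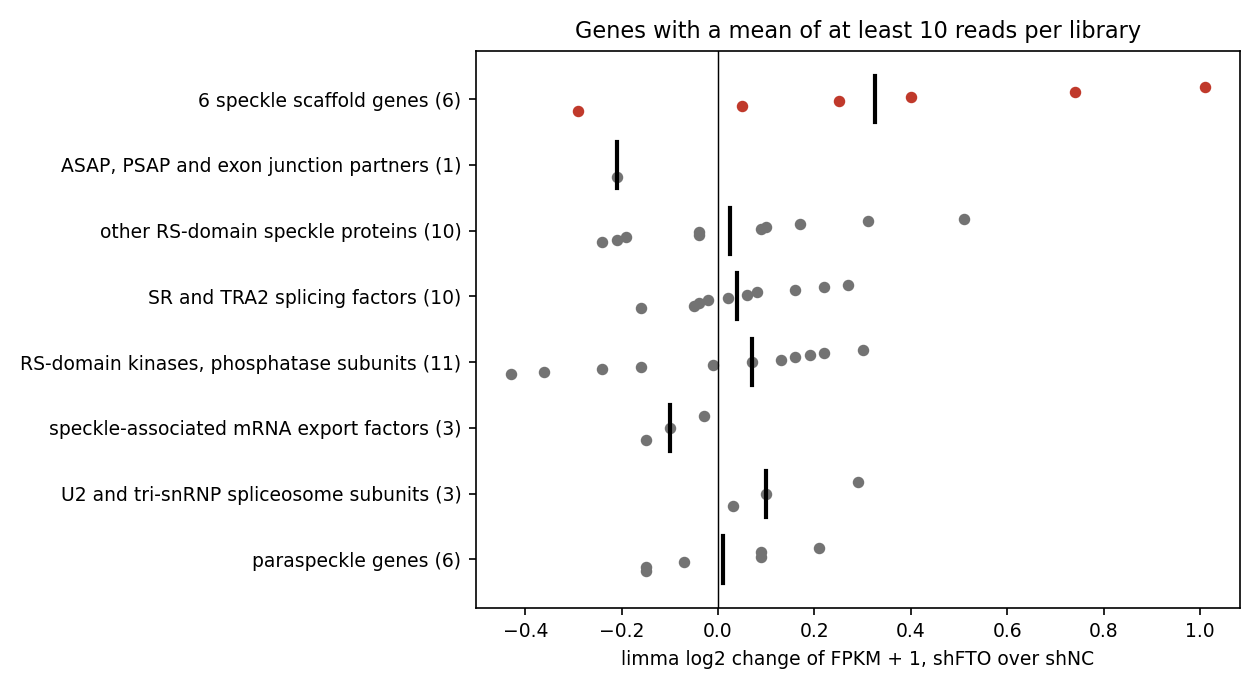
Limma log2 change of FPKM + 1, shFTO over shNC (horizontal), for the 6 members (red) and for the genes of each list with a mean of at least 10 reads per library (grey), with the number of genes in brackets; black bars are medians. The members run from -0.29 for PNISR to 1.01 for SRRM1 with a median of 0.32. List medians lie between -0.21, from 1 gene, and 0.10. The same contrast chose the members, so nothing is read from the difference in medians.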

How the data were processed

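The authors deposited FPKM values per gene, rounded to 2 decimals, for 3 shFTO and 3 shNC libraries, with exonic length, position and symbol. The submitters' processing notes name build GRCh38, the aligner HISAT2 2.2.1, and StringTie 1.3.3b, HTSeq 0.6.1, DESeq2 1.50.2 and FastQC 0.10.1, without saying which made these values. Columns named NC or sh with a number were matched to shNC or shFTO replicates by name.

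Whole reads were recovered by trying library totals from 20000 to 200000 and keeping one that turned FPKM into integers. Every value above 0 (100%) then lay within 0.05 of an integer, and 3 to 6 totals per library did equally well, of which the one with the smallest rounding residual was used. A multiple of a fitting total can also give integers. Read numbers, counting CVs, dispersions and intervals from counts therefore hold for the totals used. Limma 3.58.1 in R 4.3.3 (trend, robust) was fitted to log2(FPKM + 1), with Benjamini-Hochberg adjustment, for the 4932 genes averaging 1 FPKM or more in either group. Limma-voom on the recovered reads was an alternative. Fold changes on this scale understate low genes. The quasi-Poisson fit used 1021 genes with at least 30 reads. Its SEs and intervals rest on dispersions moderated across genes and kept at 1 or more. Fits were run on simulated data, with changes larger than that of SON planted in genes with fewer reads than SON. Detection rates are not given here, and that run does not bear on SON. A list gene that was not called is not shown to be unchanged. Python 3.11.15 and SciPy 1.17.1 gave exact tests and intervals at 95%.

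Members, lists and naming rule were chosen with earlier results of these data known. The rule named FTO, all members, the next 2 estimates after SON, the 4 highest and the lowest r (the lowest is not reported here), the 3 most-read genes of each list, called list genes, and overlapping genes or pseudogenes of members. Promoter sequences are from RefSeq (GRCh38.p14), where 6 of 6 members matched, and coding sequences from GENCODE 29 (GRCh38).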

Additional observations from a re-analysis of the deposited data

How the results depend on the processing

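The count of all called genes, 2 as reported, moved with the settings: 7 with a pseudocount of 0.1, 9 with no filter, 5 in limma-voom, 0 in the quasi-Poisson fit, 0 among genes with a mean of at least 10 reads, and 2 to 9 with 1 library left out. With a replicate block it was 17. Deviations of same-numbered libraries correlated at -0.003, 0.04 and -0.01. Counting error is large at these read numbers and could hide a shared batch, so these values cannot show whether the numbers pair the libraries. In all 13 alternatives 0 members and 0 list genes were called. The log2 change of SON ran from 0.36 to 0.44, that of SRRM1 from 0.43 to 1.42, of SRRM2 from 0.00 to 0.57, of PNN from -0.06 to 0.14, of ACIN1 from 0.40 to 0.92 and of PNISR from -0.52 to -0.10. All of these moves were within 1 SD of the gene's log2 FPKM within groups. Of the 4 genes most like SON, 2 remained by Spearman's rho and 3 with median-of-ratios scaling, and the cause was not tested. In 4 of the 6 members fewer than 30 reads per library limited precision.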

Other observations

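Genes around SON on chromosome 21 were read far less than SON itself. Of 33 genes listed within 500 kb of SON, 8 had reads, 31 in shFTO and 21 in shNC, against 573 and 413 reads for SON. ITSN1, an endocytic scaffold gene, had 5, 6 and 6 reads in shFTO and 0, 4 and 1 in shNC, so its groups did not overlap. Of all 4932 tested genes, 2.9% lay higher in shFTO without overlap and 3.69% lower, so nothing is read from this. SLC5A3, an inositol transporter gene, had 7 reads in shFTO and 3 in shNC, and MRPS6, a mitochondrial ribosome gene that overlaps it, had 0 and 5. Genes of the interferon receptors IFNAR1, IFNAR2 and IFNGR2 had 3 reads or fewer each. GART, which starts within the same region as SON, had 4 reads in shFTO replicate 2, 1 read in shNC replicate 1 and 0 in the other libraries. These genes were not tested as a group, and ITSN1 was named after its values were seen.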
